A study of Homo sapiens with 2 samples.

Results

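Accessible chromatin around the oncogene MYC was mapped by ATAC-seq in RPMI-8402 and Jurkat, 2 established human cell lines of T-ALL. This disease, acute lymphoblastic leukaemia of the T lineage, arises from developing T cells. In ATAC-seq the Tn5 transposase cuts and tags open DNA, so that a peak marks a site where DNA is exposed. Both lines were grown in the same serum-containing medium, no drug or genetic change is named in the labels, and each line gave 1 library. The peaks described are those with a summit between positions 128000000 and 130900000 of chromosome 8 on hg19. There were 41 of them, 13 of the 24603 RPMI-8402 peaks and 28 of the 25189 Jurkat peaks, with mitochondrial peaks left out. Within the interval every peak was taken by its position, whatever its values, and the interval itself was set with earlier results of these data known. MYC itself occupies positions 128748315 to 128753680.

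MYC is a basic helix-loop-helix transcription factor that promotes cell growth and division, and its overexpression is a common driver of leukaemia. The gene lies beside a long stretch almost free of protein-coding genes, and enhancers scattered through that desert are known to act on MYC in different tissues. In T-ALL, activated NOTCH receptors are known to raise MYC expression through one of these distant enhancers, which lies downstream of the gene near 130.18 Mb. In the RefSeq gene order of GRCh38.p14, the nearest protein-coding genes are POU5F1B on the upstream side and GSDMC on the downstream side. The 21 genes listed between MYC and GSDMC include 11 long non-coding RNA genes and 6 microRNA genes, beginning with PVT1 and ending with the long non-coding gene CCDC26 and MIR3686. Start sites of these genes on hg19 were not used here, so peaks other than the one at MYC are placed by their distance from the MYC start and not by exon, intron or UTR.

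A value called fold is the enrichment of a peak's summit over local background that the authors' peak caller gave. The pileup is the number of fragments over that summit, recovered from the deposited fold and p-value together with the background. With 1 library per line no value has a replicate error, no difference between lines could be tested, and the 95% intervals cover counting error only. Fragments copied by PCR would make those intervals too narrow. The fragments sequenced per library are not stated in the files or labels used. The background used for the genome as a whole was 1.96 fragments per base in RPMI-8402 and 1.59 in Jurkat. The weakest peak called anywhere had a pileup of 10 in RPMI-8402 and 9 in Jurkat.

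**Figure D1:**
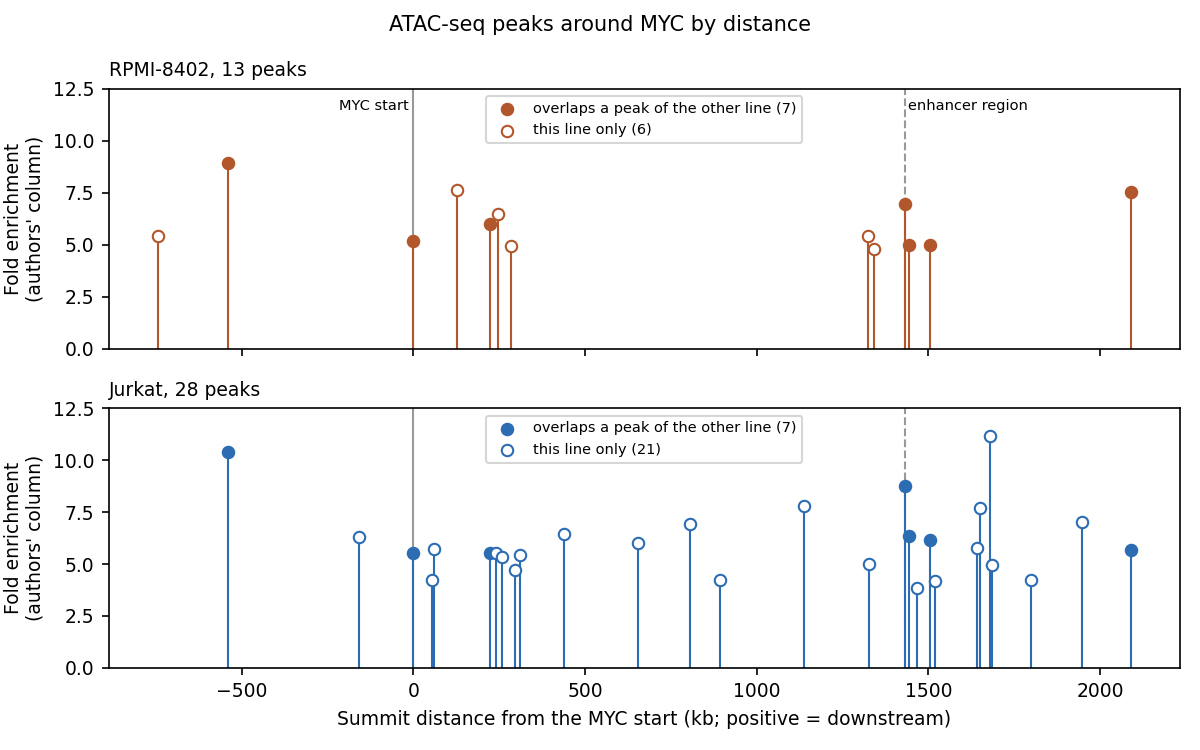
Fold enrichment of every peak around MYC (vertical axis, authors' values) against the distance of its summit from the MYC start in kb, with RPMI-8402 above and Jurkat below. Filled points overlap a peak of the other line (7 in each), open points do not (6 in RPMI-8402, 21 in Jurkat), and the dashed line marks the enhancer position near 130.18 Mb.

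Both lines had an open MYC start. The RPMI-8402 peak spanned positions 128747253 to 128748628, with its summit 525 bp upstream of the MYC start, and reached 314 bp into the gene. The Jurkat peak spanned positions 128747337 to 128748717, with its summit 660 bp upstream, and reached 403 bp into the gene. Each was the widest peak of its line in the interval, at 1376 bp in RPMI-8402 and 1381 bp in Jurkat. No other peak of either line lay within 5 kb of MYC.

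The summit pileup at MYC was 77 fragments in RPMI-8402 (95% Poisson interval 60.8 to 96.2) and 76 in Jurkat (59.9 to 95.1). These were the highest pileups around MYC in both lines, and they differed by 1 fragment. Relative to the median ratio of all 16494 peak pairs in the genome, the RPMI-8402 to Jurkat ratio at MYC was 1.14 (exact conditional interval 0.819 to 1.59), which includes 1. A pair is 1 RPMI-8402 peak and 1 Jurkat peak that overlap each other and nothing else.

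The fold put the MYC peak in another place than its pileup did. Its fold was only 5.17 in RPMI-8402 and 5.55 in Jurkat, at percentiles 20.4 and 23.8 of those lines' own lists, while its pileup stood at percentiles 77.2 and 73.3. The local background under it was 14.1 fragments per base in RPMI-8402, 7.20 times that line's genome-wide level, and 12.9 in Jurkat, 8.11 times that level. No other peak of the interval had a background above 2.71 times the genome level in RPMI-8402 or 4.12 times in Jurkat. Because fold is a quotient over that background, levels around MYC are compared by pileup, with the fold beside it.

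The NOTCH-bound enhancer region was also open in both lines. RPMI-8402 had a peak at positions 130180220 to 130180849 and Jurkat one at 130180182 to 130180849, with summits 1432 kb downstream of the MYC start and 38 bp apart. Both peaks ended at the same base. The fold was 6.98 in RPMI-8402 and 8.75 in Jurkat. The pileup was 43 in RPMI-8402 (31.1 to 57.9) and 65 in Jurkat (50.2 to 82.8). At no other shared peak around MYC was the RPMI-8402 pileup as far below the Jurkat one.

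How far apart the lines stood at this enhancer depended on the scaling between libraries. Against the median of all pairs the RPMI-8402 to Jurkat ratio was 0.744 (0.494 to 1.11), an interval that includes 1. Unscaled, the ratio was 0.662 (0.439 to 0.987), and divided by each library's genome background it was 0.537 (0.357 to 0.801), both below 1. Under these scalings the median of all pairs was itself below 1, at log2 −0.17 unscaled and −0.47 with the background. Both intervals include the median of their scaling. A level in RPMI-8402 lower than that of a typical pair was thus not shown at this depth.

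A second pair of overlapping peaks lay 1444 kb downstream of the MYC start. In RPMI-8402 it spanned positions 130191841 to 130192563 with a fold of 4.98 and a pileup of 21. In Jurkat it spanned positions 130191910 to 130192418 with a fold of 6.33 and a pileup of 26. The centred ratio was 0.909 (0.486 to 1.68), so any difference was within counting error. Within 50 kb of the named enhancer position, RPMI-8402 had these 2 peaks, and Jurkat had 3, the additional one at positions 130214662 to 130214949. That Jurkat peak had a pileup of 9, the lowest called in the line, and a missing RPMI-8402 call there carries little weight.

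Of the remaining 4 shared sites, the strongest was upstream. It lay 539 kb from the MYC start, at positions 128208892 to 128209742 in RPMI-8402 and 128208990 to 128209769 in Jurkat, and the summits were 6 bp apart. The fold was 8.92 in RPMI-8402, the highest of that line around MYC, and 10.4 in Jurkat. The pileup was 46 in RPMI-8402 (33.7 to 61.4) and 57 in Jurkat (43.2 to 73.9). The centred ratio was 0.908 (0.602 to 1.36) and the unscaled one 0.807 (0.535 to 1.21), both within counting error. Divided by each library's genome background it was 0.655 (0.434 to 0.983), below 1. That interval includes the median of all pairs under this scaling, log2 −0.47, so it is no result about this site.

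The 3 other shared sites were downstream and weaker. The pair 224 kb from the MYC start had a pileup of 30 in RPMI-8402 and 32 in Jurkat, with folds of 5.99 and 5.52. The pair 1505 kb downstream had 15 fragments in RPMI-8402 and 18 in Jurkat, with folds of 5.01 and 6.15. At these sites the centred ratios were 1.05 (0.619 to 1.79) and 0.938 (0.440 to 1.97). The farthest pair, 2090 kb downstream at positions 130838184 to 130838630 in RPMI-8402 and 130838250 to 130838604 in Jurkat, was the one that leaned most towards RPMI-8402. It had a pileup of 28 in RPMI-8402 and 22 in Jurkat and folds of 7.54 and 5.69, a centred ratio of 1.43 (0.790 to 2.63).

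**Figure D2:**
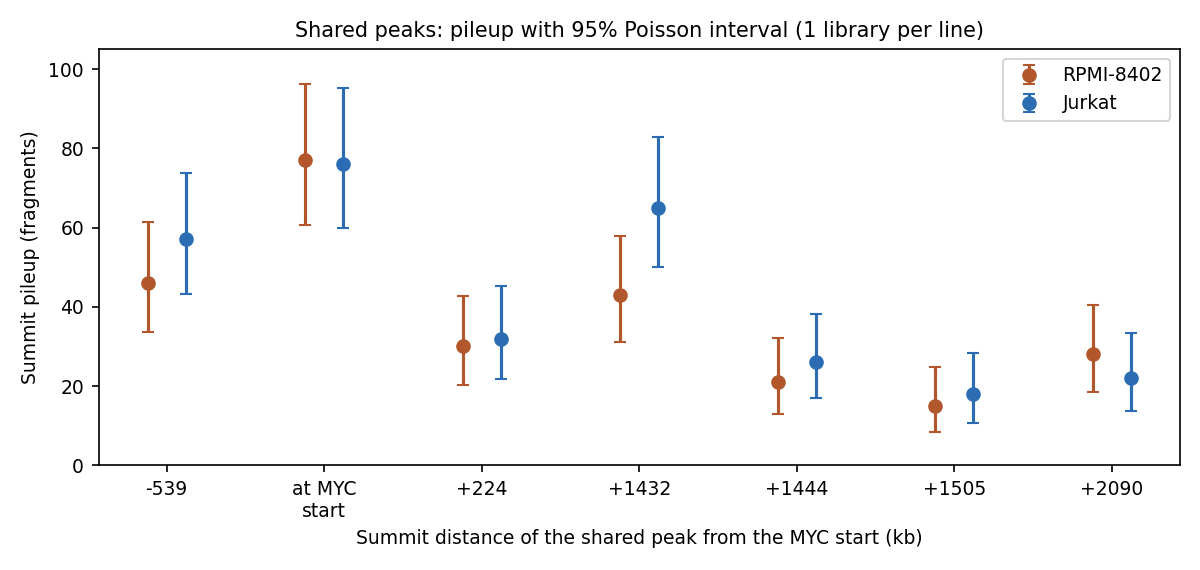
Summit pileup in fragments (vertical axis) of the 7 shared peaks, ordered by distance from the MYC start in kb, with RPMI-8402 left of Jurkat at each site and bars for 95% Poisson intervals of single libraries. The 2 values are nearest each other at the MYC start (77 in RPMI-8402 and 76 in Jurkat) and farthest apart at the enhancer 1432 kb downstream (43 in RPMI-8402 and 65 in Jurkat).

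The 7 shared sites were also compared as a group. As log2 of RPMI-8402 over Jurkat, the centred pileup ratio had a median of −0.09, and single sites ranged from −0.43 to 0.52. The interval of the ratio included 1 at all 7 sites with this centring, at 6 with unscaled pileups and at 5 when scaled by the genome background. The median log2 ratio of all pairs was −0.17 unscaled and −0.47 scaled by the genome background. No share over all pairs stands beside these counts, so they are no result about the 7 sites. On the deposited fold, 2 sites were higher in RPMI-8402 and 5 in Jurkat. The fold leaned to Jurkat over all pairs as well, with medians of 8.36 in RPMI-8402 and 9.63 in Jurkat. Centred on all pairs, the median log2 fold ratio of the 7 sites was 0.02, so that count is no result about them. None of the 7 reached a 2-fold difference in either direction (exact upper bound 41.0%). In the genome 9.21% of pairs were at least 2-fold higher in RPMI-8402 and 4.89% in Jurkat, so with 7 sites a count of 0 is no result about these ones.

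The number of called sites around MYC differed between the lines. RPMI-8402 had 13 peaks, or 4.48 per Mb, and Jurkat had 28, or 9.66 per Mb. Merged, they made 34 regions, of which 7 were open in both lines, 6 in RPMI-8402 only and 21 in Jurkat only. Thus 46.2% of the RPMI-8402 peaks (6 of 13) had no partner, where the share over all RPMI-8402 peaks was 31.9%. Of the Jurkat peaks 75% (21 of 28) had none, where the share over all Jurkat peaks was 32.6%. On the rest of chromosome 8 the shares without a partner were 38.3% in RPMI-8402 and 38.2% in Jurkat. The share with a partner was 53.8% in RPMI-8402 (exact interval 25.1 to 80.8%) and 25% in Jurkat (10.7 to 44.9%). In the rest of the genome it was 68.1% and 67.5%, so the RPMI-8402 difference was within counting error.

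Weak peaks are shared less often than strong ones, and most peaks around MYC were weak. The fold was below the list median for 10 of the 13 RPMI-8402 peaks and 24 of the 28 Jurkat peaks. The shares were therefore also set out by strength, with each line's median −log10 q as the border. Below it, 4 of 10 RPMI-8402 peaks around MYC were shared (40%, exact interval 12.2 to 73.8%), against 46.1% in the rest of the genome. In Jurkat 4 of 23 such weak peaks were shared (17.4%, 4.95 to 38.8%), against 43.1% in the rest of the genome. Above the border, 3 of 3 RPMI-8402 peaks and 3 of 5 Jurkat peaks were shared, against 90.1% and 91.9% elsewhere in those lines. Among weak peaks the Jurkat share was also below that of the rest of the genome. Strength still varied within each class, and whether it accounts for the lower share was not tested. These intervals treat peaks as independent counts, and no test between lines stands behind them.

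The Jurkat-only peaks were spread over the downstream side. A first run of 7 consecutive Jurkat-only regions covered positions 129043043 to 129887027, a stretch of 844 kb. Their summits lay 295, 309, 440, 654, 805, 894 and 1139 kb from the MYC start. In that order the Jurkat pileups were 15, 13, 16, 36, 21, 10 and 21, and the folds 4.70, 5.41, 6.43, 6.04, 6.95, 4.25 and 7.78. The peak 654 kb downstream, at positions 129402369 to 129402774, had the highest pileup of the run, and the peak at 1139 kb, at positions 129886688 to 129887027, the highest fold.

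Seen from RPMI-8402, this part of the desert had no called peak. Its neighbouring summits at 129033370 and 130071675 were 1038 kb apart, the longest gap of that line around MYC. Of the 24579 gaps between neighbouring RPMI-8402 summits in the genome, 0.793% were at least as long, and the median gap was 53.9 kb. The longest Jurkat gap was 381 kb, from 539 to 158 kb upstream of MYC, and 6.37% of Jurkat gaps were at least as long. It held no RPMI-8402 peak either. Both gaps were picked as the longest of their line in an interval chosen for its gene desert, and were ranked against single gaps. These percentages therefore give a rank and not a probability.

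A second run of 7 Jurkat-only regions followed the enhancer pairs, at positions 130266639 to 130694525. The summits were 1519, 1642, 1650, 1680, 1687, 1800 and 1946 kb from the MYC start. The Jurkat pileups were 13, 32, 44, 63, 14, 13 and 23 in that order, and the folds were 4.16, 5.79, 7.70, 11.2, 4.94, 4.21 and 7.03. The neighbouring RPMI-8402 summits were 585 kb apart here, at 130253403 and 130838423.

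This run held a cluster of 4 peaks within 45.0 kb, at positions 130390347 to 130435356, singled out after its values were seen. The strongest peak, at 130427556 to 130428390, had the highest −log10 q (44.9) and the highest fold (11.2) of any peak around MYC in either line, and a pileup of 63 (48.4 to 80.6). Another, at 130398562 to 130399103, reached a pileup of 44 (32.0 to 59.1) and a −log10 q of 24.5. The one nearest MYC, at 130390347 to 130390973, covered its summit with 32 fragments (21.9 to 45.2). The closest RPMI-8402 peak to the cluster was 136395 bp away.

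The other 7 Jurkat-only peaks were scattered. One lay 158 kb upstream of MYC, at positions 128590339 to 128591014, with a pileup of 20 and a fold of 6.29. Of those downstream, the peaks at 53 and 59 kb were the nearest to MYC and had pileups of 10 and 18. The peaks at 240 and 257 kb had pileups of 25 and 17. The peak at 1326 kb, with a pileup of 19, lay 2284 bp from a RPMI-8402-only peak, and the last was the pileup of 9 described beside the enhancer.

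The 6 RPMI-8402-only peaks had pileups between 15 and 32. The strongest was at positions 128876308 to 128876922, 128 kb downstream of the MYC start, with a pileup of 32 (21.9 to 45.2), a fold of 7.66 and a −log10 q of 18.4. Its nearest Jurkat peak was 69264 bp away. Peaks 245 and 285 kb downstream had pileups of 24 and 20. Jurkat had its closest peaks 4994 bp from the first of them and 9548 bp from the second. Ahead of the enhancer, peaks 1323 and 1342 kb downstream had pileups of 16 and 24, with Jurkat peaks 2284 and 15537 bp away. The remaining one lay 744 kb upstream and had a pileup of 15 (8.40 to 24.7).

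**Figure D3:**
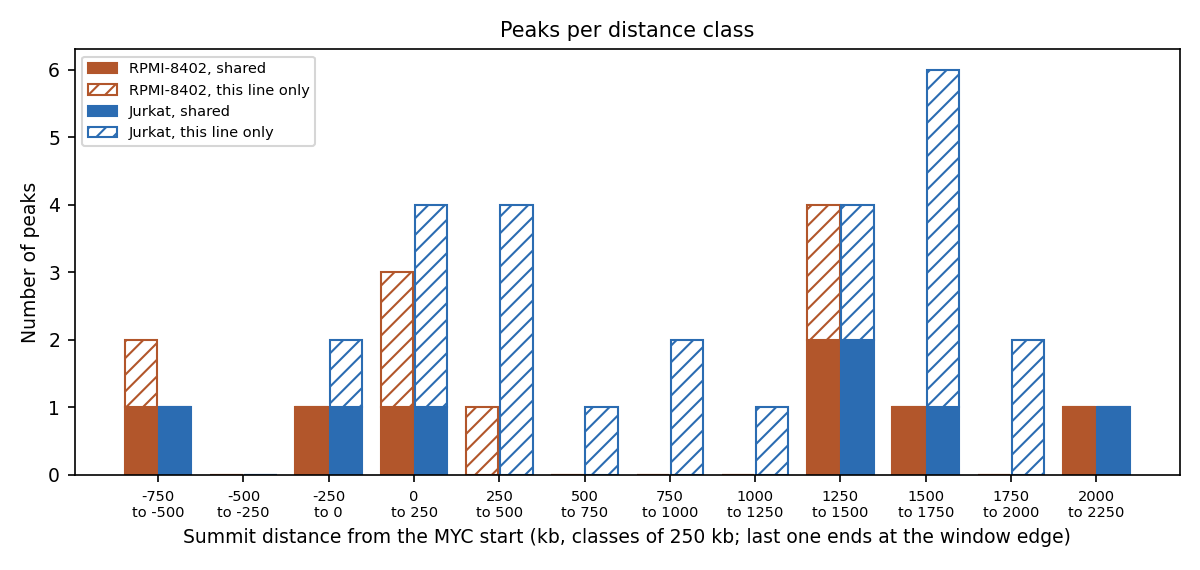
Number of peaks per line (vertical axis) in classes of 250 kb by distance from the MYC start in kb, with RPMI-8402 bars left of Jurkat bars, solid for peaks shared between the lines and hatched for peaks of 1 line. From 500 to 1250 kb there are Jurkat peaks and no RPMI-8402 peaks, and the class from 1500 to 1750 kb holds 1 RPMI-8402 and 6 Jurkat peaks.

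By distance from MYC, the lines had equal numbers of peaks upstream and at the gene, and unequal numbers downstream. Upstream there were 2 peaks in RPMI-8402 and 2 in Jurkat, and at MYC 1 in each. Between the gene and 1.3 Mb downstream there were 4 in RPMI-8402 and 12 in Jurkat, and 1 of them was shared in each line. From 1.3 to 1.6 Mb, the zone of the enhancer, there were 5 in RPMI-8402 and 6 in Jurkat, with 3 shared in each. Beyond 1.6 Mb there was 1 in RPMI-8402, which was shared, and 7 in Jurkat, of which 6 were not. Of 11 classes of 250 kb with a peak, 4 held Jurkat peaks only and 0 RPMI-8402 peaks only. The difference between zones was not tested.

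The missing RPMI-8402 calls were set against depth peak by peak. For each Jurkat-only peak, the pileup expected in RPMI-8402 at the median ratio of all pairs was set beside the pileup a call would have needed there. The need was computed at the lowest called p-value, with the Jurkat background carried over in proportion to the genome-wide levels, which is an assumption. These peaks were picked by a Jurkat call and the ratio comes from pairs called in both lines, so the expected pileups lean high. The expected pileup met the need for 16 of 21 Jurkat-only peaks, and at least doubled it for 2, both in the cluster of 4. Some met it narrowly, as at 295 kb with 13.3 expected and 13 needed, where counting error alone could lose a call. At the strongest one 56 fragments were expected and 19 needed, so an uncalled RPMI-8402 summit would have had at most 0.321 of the expected pileup. For 14 of the 21 the expected value was above the need but less than 2 times it, and for 5 it was below the need. No share over all Jurkat-only peaks of the genome stands beside these counts, so they are not read as a trait of this interval.

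The same was done for the RPMI-8402-only peaks. The pileup expected in Jurkat, which leans high for the same reason, met the need at 6 of 6, and at least doubled it at 2. At 128 kb downstream of MYC, 36 fragments were expected in Jurkat and 12 needed. At 245 kb, 27 were expected and 11 needed. These counts too stand without a share over all RPMI-8402-only peaks of the genome.

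**Figure D4:**
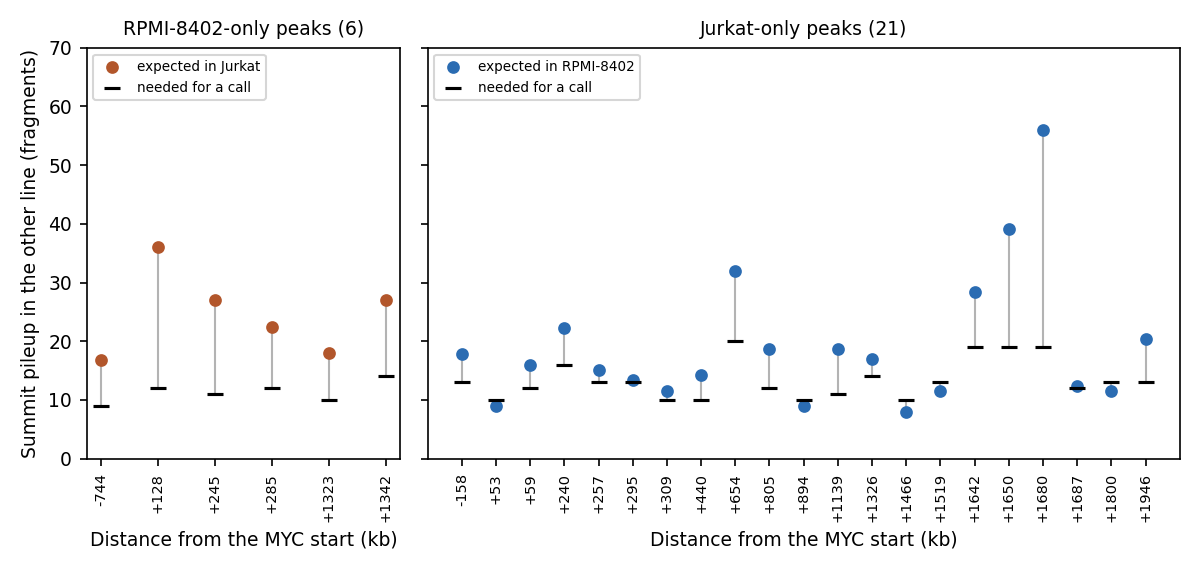
Pileup in fragments (vertical axis) that each peak of 1 line would have in the other line at the median ratio of all pairs (points), and the pileup a call would have needed there (dashes), by distance from the MYC start in kb. RPMI-8402-only peaks are on the left and Jurkat-only peaks on the right, where the point for the peak 1680 kb downstream is at 56 against a need of 19.

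Set against the rest of the genome, the stretch around MYC had few RPMI-8402 peaks for its Jurkat peaks. The ratio of peak numbers, RPMI-8402 over Jurkat, was 0.464 around MYC (exact conditional interval 0.221 to 0.926), 0.981 on the rest of chromosome 8 and 0.977 over all chromosomes. That interval treats peaks as independent counts, although some lie in clusters, so it may be too narrow and is no test between lines. Of 867 other stretches of 2.9 Mb with at least 20 peaks in both lines together, 7 had a ratio as low, or 0.807%. The median ratio of those stretches was 0.962, and the range from the 5th to the 95th percentile was 0.611 to 1.79. The stretches include larger ones by peak number, whose ratios vary less by counting alone. This comparison was chosen after the values were seen and describes 2 libraries.

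Pileups can be compared only at sites called in both lines, so they say nothing about the uncalled ones. The median centred log2 ratio of the pileup was −0.09 over the 7 pairs around MYC and −0.01 over the 673 pairs on the rest of chromosome 8. It was −0.29 over the 16 pairs in the 2.9 Mb below the interval and −0.29 over the 12 pairs in the 2.9 Mb above it. Scaled by the genome background instead, the median around MYC was −0.56, where that of all pairs was −0.47. The enhancer pair was the lowest of the 7 at −0.43, and the MYC pair stood at 0.19.

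**Figure D5:**
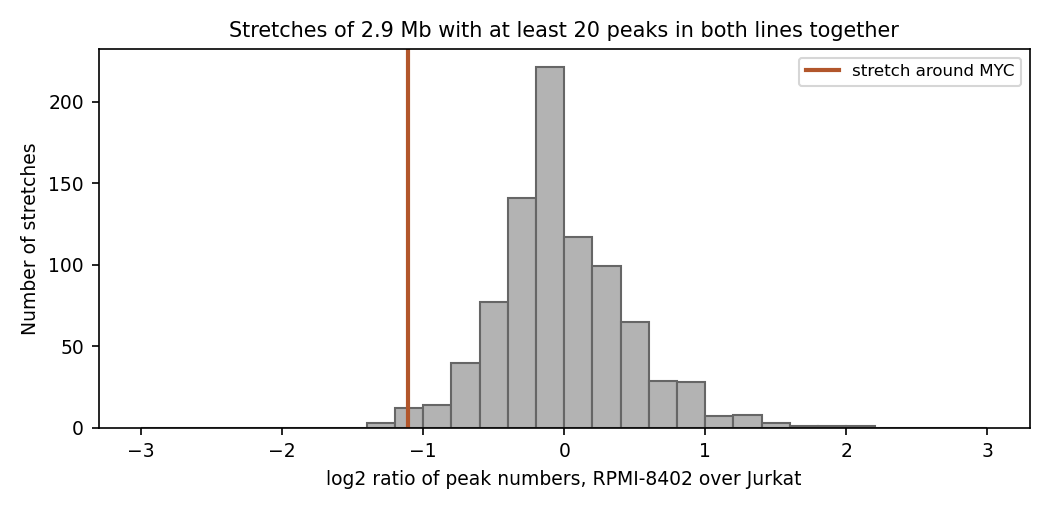
Number of stretches of 2.9 Mb (vertical axis) by log2 ratio of RPMI-8402 to Jurkat peak numbers, for 867 stretches outside the interval around MYC with at least 20 peaks. The vertical line marks the interval around MYC, whose ratio of 0.464 is met or undercut by 7 of these stretches.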

How the data were processed

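ATAC-seq libraries of RPMI-8402 and Jurkat, 1 each, were read as paired ends, per the labels' protocols. Bowtie2, Picard, SAMtools, MACS2 2.1.1.2016030 and hg19 appear in the submitters' processing notes without roles. The authors deposited 1 peak list per library with position, summit, score, fold enrichment, and −log10 of p-values and q-values. The deposited score is 10 times the −log10 p-value and was not used.

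Pileup n and background b were solved from fold = (n + 1)/(b + 1) and the Poisson tail above n. The solution was within 0.01 of a whole number in 100% of peaks in each line. Overlap meant at least 1 bp. Ratios were centred on the median of all pairs. Work was done in Python 3.11.15 with scipy 1.17.1, pandas 2.3.3, numpy 2.4.6 and matplotlib 3.10.9. The pileup solution and the overlap step were tested on simulated data, with pileups simulated under the same formula that was solved. The other steps were not tested in this way.

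Regions named in full were the peaks at MYC and within 50 kb of the enhancer position, the 5 merged regions and 5 peaks per line without a partner with the highest −log10 q, the pairs differing most, and the longest gaps. The interval and these rules were chosen with earlier results of these data known. Alternatives were other overlap rules, a −log10 q minimum of 10, the 10000 strongest peaks, other scalings and other distance classes. Peaks at the start sites of listed genes were not analysed here, because the gene table used is on another build. No list of artefact-prone regions was applied.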

Additional observations from a re-analysis of the deposited data

How the results depend on the processing

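Of 36 alternative values, 31 stayed within the counting interval of the reported value, or within 1.5 times a count, and 5 moved. Many of the 31 could hardly move, being repeats of a count of 0 pairs or shares of few peaks with wide intervals. The tally is therefore no measure of robustness. With −log10 q of at least 10 there were 7 peaks in RPMI-8402 and 15 in Jurkat, fewer by construction. The ratio of peak numbers was then 0.467, and it was 0.667 both for the 10000 strongest peaks of each list (2 in RPMI-8402 and 3 in Jurkat) and for pileups of at least 20 (10 and 15). These ratio settings were chosen after seeing the data. Their values counted as unmoved because the main interval, 0.221 to 0.926, is wide, and 0.667 is a smaller difference between lines than 0.464. The share of RPMI-8402 peaks with a Jurkat partner ran from 46.2 to 71.4% over all settings, and the share of Jurkat peaks with a RPMI-8402 partner from 21.4 to 40%. The median log2 pileup ratio was −0.56 when scaled by the genome background, which puts the median of all pairs at −0.47, and 0.02 on the deposited fold centred on all pairs. Classes with RPMI-8402 peaks only numbered 0 at 500 kb and 2 at 100 kb, and those with Jurkat peaks only 1 at 500 kb and 10 at 100 kb, as wider classes hold more peaks. No paired analysis was possible because there was 1 library per line, and for the same reason leaving out a replicate was not possible. Pileups near 9 in Jurkat and 10 in RPMI-8402 are at the limit of what could be called.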

Other observations

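On either side of the interval the lines were closer in peak numbers and in shared percentages, without a test of that difference, but not in pileup. In the 2.9 Mb below it there were 29 RPMI-8402 and 34 Jurkat peaks, of which 58.6% and 52.9% had a partner in the other line. In the 2.9 Mb above it there were 20 RPMI-8402 and 22 Jurkat peaks, of which 60% and 54.5% had one. The median centred log2 ratio of the pileup was −0.29 over the 16 pairs below and −0.29 over the 12 pairs above.

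The first peaks outside the interval were shared in RPMI-8402 and were not in Jurkat. The RPMI-8402 peaks at positions 127570022 to 127570896 and 130951537 to 130952628 had pileups of 121 and 150, above the highest value inside, 77. The Jurkat peaks at 127889002 to 127889291 and 130912330 to 130913054 had pileups of 12 and 26.

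The shared peaks around MYC were wider in RPMI-8402 at 5 of 7 sites. The peak 1505 kb downstream was 765 bp wide in RPMI-8402 and 312 bp in Jurkat, and its summits were 240 bp apart, the most of the 7. Over the whole lists, paired or not, the median width was also larger in RPMI-8402, at 694 bp and 611 bp in Jurkat. The share of all pairs with a wider RPMI-8402 peak was not computed, so the count of 5 of 7 is no result about these sites.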
